A study of Homo sapiens with 12 samples.

Results

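The genes described here are 10 autophagy genes, DRAM1, TP53INP1, TP53INP2, ULK1, ULK2, SQSTM1, MAP1LC3B, GABARAPL1, ATG2B and ATG4A. They were chosen by gene name, with earlier results of these data known, from 23195 genes in the authors' deposited tables. All 10 were among the 19393 genes listed in all 4 tables. TP53INP1 had been singled out because its RNA was lower with siRFX7 in cells under Nutlin-3a. That comparison, and any measure that contains it, is therefore given for these genes as a description without a test. The study sequenced polyA RNA from HCT116, a human colorectal carcinoma line with intact p53, in 12 libraries. Cells carried a control siRNA (siControl) or an siRNA directed at the transcription factor gene RFX7 (siRFX7). They received Nutlin-3a at 10 µM, or the solvent DMSO, for 24 h. Each siRNA was combined with each treatment, giving 4 groups, each with 3 replicates and 500 ng of total RNA per library. All groups were transfected and all came from 1 cell line. The labels give neither the siRNA sequences nor whether replicates were separate cultures, so p-values measure only the spread between these samples, which may be technical.

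Autophagy delivers cell contents to lysosomes. The ULK kinases start the process, ATG2 proteins move lipid into the growing membrane, and ATG4 proteases trim the small ATG8 proteins (the LC3 and GABARAP families) before these are attached to it. Receptors such as p62, the product of SQSTM1, link cargo to ATG8 proteins. The transcription factor p53 is held low by MDM2, and Nutlin-3a blocks the binding of MDM2 to p53. DRAM1 and TP53INP1 are established p53 target genes. RFX7 belongs to a family of factors that bind X-box DNA elements.

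Promoter sequences from RefSeq (GRCh38.p14) covered 9 of the 10 genes with 12 promoters of 300 bases, each reaching from 250 bases before an annotated start to 50 bases after it. TP53INP1 had no entry. Motifs were searched on both strands, and none of the matches overlapped another motif. The X-box half-site GTTGCC was present in 2 of the 12 promoters, those of ATG4A and a downstream TP53INP2 start, and in 12.2% of 35116 promoters overall. The cyclic AMP response element TGACGTCA, looked for after the letters of these promoters had been read, was present in GABARAPL1 and in the upstream TP53INP2 promoter, and in 1.85% of all promoters. A p53 half-site was matched in the GABARAPL1 promoter and in 6.63% of all promoters. The E-box CACGTG was in none of the 12 and in 7.26% of all promoters. The 4 promoters below were picked from those of genes that rose with Nutlin-3a under both siRNAs, and 3 of them hold a match, which stands in capitals. The promoters of ULK1, SQSTM1 and ATG2B, genes that rose under both siRNAs as well, hold no match and are not shown. The downstream TP53INP2 promoter is not shown either. All 4 lie on the plus strand and run 5′ to 3′. They are DRAM1 at chr12:101877330-101877629, GABARAPL1 at chr12:10212627-10212926, the upstream TP53INP2 promoter at chr20:34704094-34704393 and ATG4A at chrX:108091528-108091827.
DRAM1: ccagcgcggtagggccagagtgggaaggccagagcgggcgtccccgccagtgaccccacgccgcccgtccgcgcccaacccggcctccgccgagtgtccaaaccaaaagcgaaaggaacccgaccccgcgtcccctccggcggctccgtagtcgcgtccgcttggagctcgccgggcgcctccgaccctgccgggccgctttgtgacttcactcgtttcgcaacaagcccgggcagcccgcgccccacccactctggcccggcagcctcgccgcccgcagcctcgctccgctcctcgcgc
GABARAPL1: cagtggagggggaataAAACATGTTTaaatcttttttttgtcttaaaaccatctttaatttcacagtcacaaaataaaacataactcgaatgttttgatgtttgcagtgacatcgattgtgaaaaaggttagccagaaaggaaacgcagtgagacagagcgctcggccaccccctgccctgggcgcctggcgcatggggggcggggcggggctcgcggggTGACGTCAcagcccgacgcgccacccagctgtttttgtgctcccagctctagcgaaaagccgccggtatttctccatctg
TP53INP2: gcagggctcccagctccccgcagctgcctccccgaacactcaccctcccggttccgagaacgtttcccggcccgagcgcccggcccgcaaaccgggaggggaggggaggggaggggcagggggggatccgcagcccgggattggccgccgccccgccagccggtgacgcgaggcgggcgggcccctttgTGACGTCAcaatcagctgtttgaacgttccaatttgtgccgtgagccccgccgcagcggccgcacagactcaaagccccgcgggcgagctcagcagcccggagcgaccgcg
ATG4A: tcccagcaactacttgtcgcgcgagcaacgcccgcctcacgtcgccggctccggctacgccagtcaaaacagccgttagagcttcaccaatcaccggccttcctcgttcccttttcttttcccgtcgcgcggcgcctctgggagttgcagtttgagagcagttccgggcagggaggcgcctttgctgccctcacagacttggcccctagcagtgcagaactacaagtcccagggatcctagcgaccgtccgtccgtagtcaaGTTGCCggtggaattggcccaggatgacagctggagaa
In GABARAPL1 the capitals mark the p53 half-site, which begins at position -234 from the annotated start, and the cyclic AMP response element, at -30. In TP53INP2 they mark a cyclic AMP response element at -61, and in ATG4A an X-box half-site beginning 12 bases after the start. The DRAM1 window held none of these letters. A match describes letters and is not evidence of binding.

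Values in the authors' deposited tables were group-level statistics, so group means are given in normalised counts with bounds at 1 standard error (SE), and the replicate spread as the coefficient of variation (CV) from the fitted dispersion. Depth, recovered from the standard errors, averaged 26639600 to 27272400 counts per library across groups, and the depth of single libraries is unknown. RFX7 fell from 944 to 185 in DMSO and from 1332 to 302 in Nutlin-3a with siRFX7. CDKN1A, a p53 target, rose from 5493 to 121149 with Nutlin-3a in siControl and from 13389 to 154897 in siRFX7, and MDM2 from 4705 to 74982 and from 6591 to 64906. All 5 epithelial markers examined (EPCAM, CDH1, KRT8, KRT18, KRT19) were listed, at 1967 or more normalised counts in every group. Of 5 markers of other cells, PTPRC and PECAM1 were not listed and CD14 had a mean of 2.05, while COL1A1 lay between 349 and 515 and was called higher with siRFX7 in both treatments. ACTA2 moved with the treatments. It averaged 96.1 in DMSO and 933 in Nutlin-3a with siControl, and 383 and 1147 with siRFX7, and the part of this in the results below was not tested. In bulk RNA, fewer cells of a type and less RNA per cell cannot be told apart.

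Nutlin-3a raised 8 of the 10 genes in siControl cells in the authors' deposited table, where a gene was called when its adjusted p was under 0.05. ULK2 fell, and MAP1LC3B did not pass the test. Among all genes listed, 22.0% were called higher and 21.2% lower. Among genes with a mean of at least 100 normalised counts, which all 10 members reach, the shares were 33.4% and 32.0%. In siRFX7 cells the authors' deposited table called 9 of the 10 higher and ULK2 lower, against 21.7% and 19.7% of all genes, or 34.0% and 28.7% of those with a mean of at least 100. The median log2 fold change of the 10 genes was 0.65 in siControl and 0.68 in siRFX7, whereas over all genes it was 0.02 and -0.02. Over genes with a mean of at least 100 it was 0.02 and 0.03. The members were chosen as autophagy genes linked to p53, with earlier results of these data known. Their counts and medians are therefore a description, and the values over all genes are not a test of them. The 2 Nutlin-3a comparisons share no library with each other, but each uses Nutlin-3a libraries on which TP53INP1 was singled out, those of siControl in the one and those of siRFX7 in the other.

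**Figure D1:**
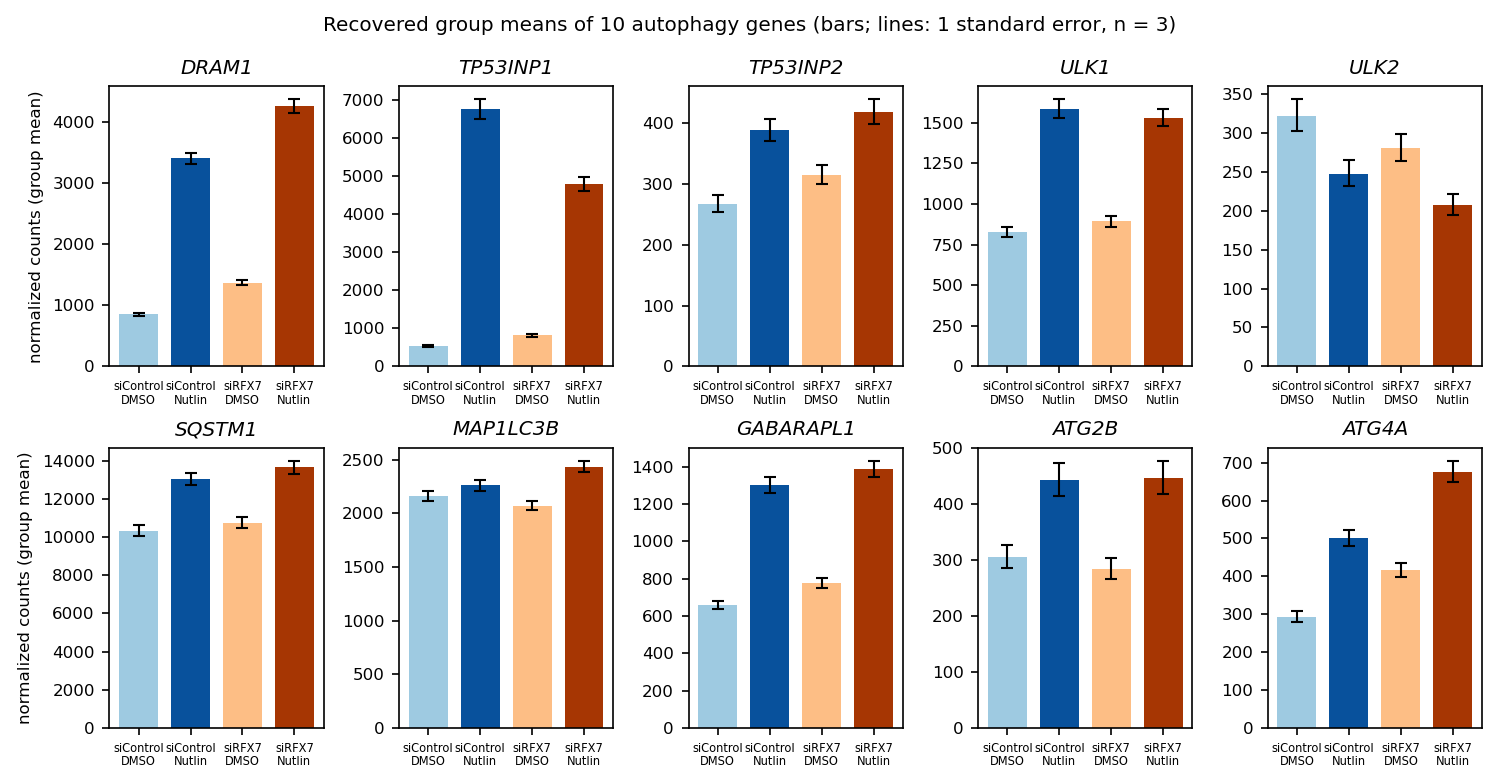
Mean normalised counts (y axes, from 0) of the 10 genes, 1 panel each; bars are recovered means of the 4 groups (n = 3 libraries each) and lines span 1 SE either way. TP53INP1 runs from 528 to 6757 in siControl, while MAP1LC3B stays between 2071 and 2434 in all groups.

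The p53-linked regulators came first in size. TP53INP1 encodes a nuclear stress protein that can bind ATG8 proteins. In siControl its mean rose from 528 (505 to 552) in DMSO to 6757 (6508 to 7015) in Nutlin-3a, and in siRFX7 from 813 (780 to 848) to 4792 (4615 to 4977), with a CV of 6.38%. The order of the groups was siControl DMSO, siRFX7 DMSO, siRFX7 Nutlin-3a and siControl Nutlin-3a, and no neighbouring bounds overlapped. The rise was 12.8-fold in siControl (95% interval 11.4 to 14.4) and 5.89-fold in siRFX7 (5.28 to 6.58, DESeq2 adjusted p = 2.90e-215) in the authors' deposited tables.

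DRAM1 encodes a lysosomal membrane protein. Its mean was 849 (823 to 876) in siControl DMSO, 3403 (3316 to 3492) in siControl Nutlin-3a, 1371 (1333 to 1411) in siRFX7 DMSO and 4257 (4150 to 4366) in siRFX7 Nutlin-3a, with a CV of 4.13%. Both Nutlin-3a groups lay above both DMSO groups, and within each treatment the siRFX7 mean was the higher one. The rise with Nutlin-3a was 4.01-fold in siControl (DESeq2 adjusted p = 6.15e-257) and 3.10-fold in siRFX7 (DESeq2 adjusted p = 1.08e-192) in the authors' deposited tables.

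TP53INP2 is the paralogue of TP53INP1 and encodes a scaffold that leaves the nucleus for autophagosomes. Its mean was 267 (254 to 282) in siControl DMSO, 388 (370 to 407) in siControl Nutlin-3a, 315 (300 to 331) in siRFX7 DMSO and 418 (399 to 439) in siRFX7 Nutlin-3a. The bounds of the 2 Nutlin-3a groups overlapped. The log2 fold changes with Nutlin-3a were 0.54 ± 0.10 (SE, DESeq2 adjusted p = 7.33e-07) in siControl and 0.41 ± 0.10 (SE, DESeq2 adjusted p = 1.35e-04) in siRFX7, in the authors' deposited tables. These were smaller than the changes of TP53INP1, whose 95% intervals did not overlap those of TP53INP2 under either siRNA.

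The initiation kinases moved in opposite directions. ULK1, whose kinase starts autophagosome formation, rose from 825 (795 to 857) to 1587 (1532 to 1644) in siControl and from 893 (860 to 927) to 1532 (1478 to 1587) in siRFX7. The Nutlin-3a means of the 2 siRNAs overlapped within 1 SE. Its log2 fold changes were 0.94 ± 0.07 (SE, DESeq2 adjusted p = 3.83e-35) and 0.78 ± 0.07 (SE, DESeq2 adjusted p = 1.48e-24) in the authors' deposited tables. ULK2, the related kinase, went from 322 (302 to 343) to 248 (232 to 264) in siControl and from 280 (263 to 299) to 207 (194 to 222) in siRFX7. It fell by 0.38 on the log2 scale in siControl (SE 0.13, DESeq2 adjusted p = 0.0108) and by 0.43 in siRFX7 (SE 0.13, DESeq2 adjusted p = 0.00372) in the authors' deposited tables. ULK2 had the second widest replicate spread of the 10 genes, with a CV of 9.39%, and at a threshold of 0.01 the siControl call was lost.

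ATG2B, a lipid transfer protein of the growing membrane, rose from 306 (286 to 328) to 444 (415 to 474) in siControl and from 284 (266 to 305) to 447 (419 to 478) in siRFX7. The 2 DMSO means overlapped within 1 SE, as did the 2 Nutlin-3a means. The log2 fold changes with Nutlin-3a were 0.53 ± 0.14 (SE, DESeq2 adjusted p = 3.35e-04) and 0.65 ± 0.14 (SE, DESeq2 adjusted p = 8.28e-06) in the authors' deposited tables. Its CV was 10.3%, the widest of the 10.

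ATG4A encodes a cysteine protease that trims ATG8 proteins. Its mean was 293 (279 to 307) in siControl DMSO, 416 (398 to 434) in siRFX7 DMSO, 500.5 (479 to 523) in siControl Nutlin-3a and 677 (649 to 705) in siRFX7 Nutlin-3a. No bounds overlapped among the 4 groups. With Nutlin-3a its log2 fold change was 0.77 ± 0.09 (SE, DESeq2 adjusted p = 1.28e-15) in siControl and 0.70 ± 0.09 (SE, DESeq2 adjusted p = 7.20e-15) in siRFX7, in the authors' deposited tables. Its promoter, printed above, holds an X-box half-site just after the start. Of all promoters, 12.2% hold this half-site, and binding was not measured.

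The 2 ATG8 genes of the set differed. GABARAPL1 rose from 659 (637 to 683) to 1302 (1262 to 1344) in siControl and from 777 (751 to 804) to 1388 (1346 to 1432) in siRFX7. The rise was 1.97-fold (DESeq2 adjusted p = 1.11e-45) and 1.79-fold (DESeq2 adjusted p = 3.13e-35) in the authors' deposited tables. MAP1LC3B, which encodes LC3B, the usual marker protein of autophagosomes, had means of 2161 (2113 to 2210) and 2260 (2211 to 2311) in siControl, which differed little. Its log2 fold change there was 0.07, with a 95% interval from -0.02 to 0.15 (DESeq2 adjusted p = 0.265 in the authors' deposited table). In siRFX7 it rose from 2071 (2026 to 2118) to 2434 (2381 to 2488), a log2 fold change of 0.23 ± 0.05 (SE, DESeq2 adjusted p = 1.46e-06) in the authors' deposited table. Both genes have near-identical copies, GABARAPL3 with a mean of 31.3 and MAP1LC3B2 with a mean of 483, and how reads with several matches were counted is not given in the sources used here, so their counts are uncertain.

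SQSTM1 encodes the cargo receptor p62, which is itself degraded by autophagy. It rose from 10345 (10086 to 10610) to 13042 (12717 to 13375) in siControl and from 10765 (10497 to 11041) to 13650 (13311 to 13999) in siRFX7. The log2 fold changes were 0.33 ± 0.05 (SE, DESeq2 adjusted p = 5.68e-10) and 0.34 ± 0.05 (SE, DESeq2 adjusted p = 2.06e-10) in the authors' deposited tables. MRNIP, on the opposite strand, shares 20.7% of the SQSTM1 exon bases and had a mean of 404, and the strand handling of the counts is not given in the sources used here. Shared exon bases with other opposite-strand genes were 8.05% for GABARAPL1 and under 3% for MAP1LC3B, ATG2B and DRAM1. GSKIP shares 2.84% of the ATG2B exon bases and had a mean of 988, against 370.5 for ATG2B itself. FBXO31, with a mean of 1445, shares 2.82% of those of MAP1LC3B, and MGAT4B, with a mean of 4014, shares 1.37% of those of SQSTM1. How far such reads enter the counts is unknown.

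**Figure D2:**
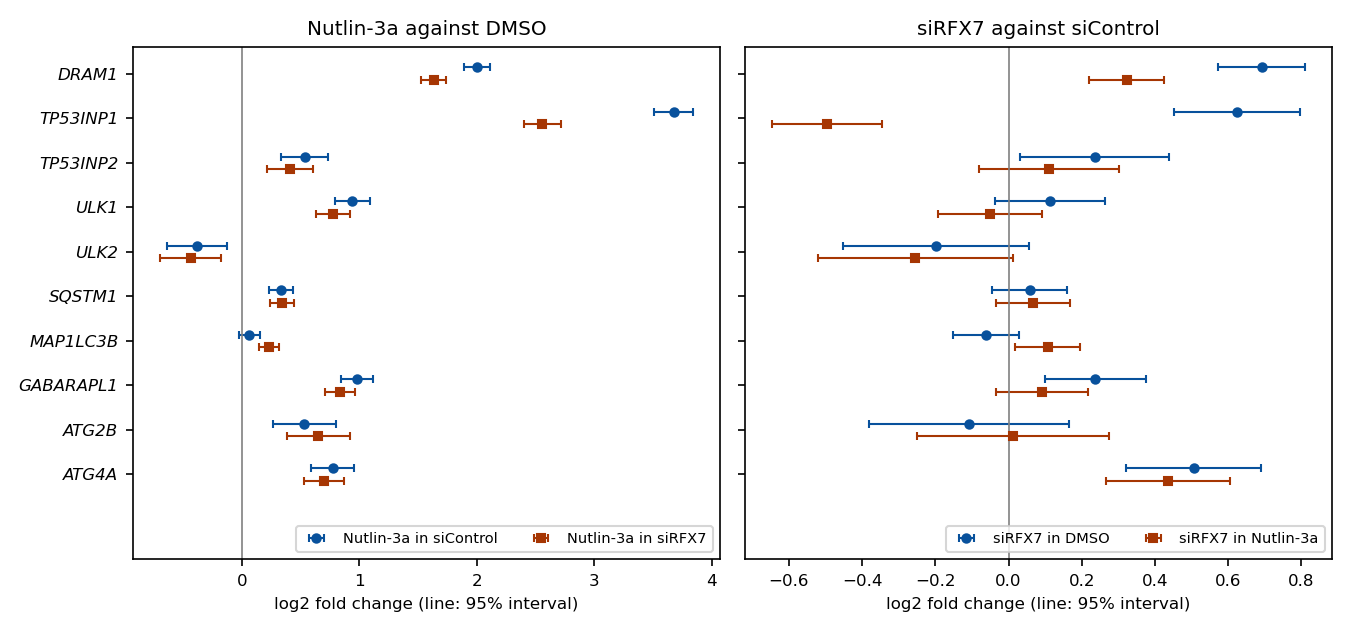
Log2 fold changes of the 10 genes with 95% intervals, for Nutlin-3a against DMSO on the left and siRFX7 against siControl on the right. In the left panel ULK2 alone lies below 0 under both siRNAs; in the right panel TP53INP1 lies at 0.62 in DMSO and at -0.50 in Nutlin-3a.

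The order of the genes by level, per kilobase of merged exon (GENCODE 29, GRCh38), changed with treatment. In siControl DMSO, SQSTM1 was highest at 1352 normalised counts per kilobase, followed by MAP1LC3B at 407 and DRAM1 at 203. GABARAPL1 (161), ULK1 (108), ATG4A (100.1) and TP53INP1 (93.0) came next, and TP53INP2 (63.3), ULK2 (32.7) and ATG2B (20.7) were lowest. In siControl Nutlin-3a the leading levels per kilobase were 1704 for SQSTM1, 1190 for TP53INP1 and 814 for DRAM1. TP53INP1 thus went from the seventh to the second place. ULK2, at 25.2 per kilobase, was then the lowest, below ATG2B at 30.01.

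siRFX7 in DMSO asks how the genes stand without Nutlin-3a when RFX7 is lowered, and shares no library with the comparison in Nutlin-3a. It does share the siControl DMSO libraries with the Nutlin-3a comparison in siControl. DRAM1, TP53INP1, GABARAPL1 and ATG4A were higher with siRFX7, and none of the 10 was called lower in the authors' deposited table. Over all genes listed, 13.5% were called higher and 15.5% lower, and among those with a mean of at least 100 the shares were 17.1% and 23.4%. The all-gene counts, 2704 higher and 3107 lower, became 3391 and 2262 when group totals were set equal. At an unadjusted p under 0.05 in the same DESeq2 test, 5 members were higher and 0 lower. The share of all genes at that looser threshold was not taken, so nothing is read from that count. The median of the 10 log2 fold changes was 0.17, against -0.003 over all genes and -0.03 over those with a mean of at least 100.

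DRAM1 was 1.62-fold higher (95% interval 1.49 to 1.75, DESeq2 adjusted p = 4.23e-28) and TP53INP1 1.54-fold higher (1.37 to 1.74, DESeq2 adjusted p = 4.20e-11) with siRFX7 in DMSO, in the authors' deposited table. ATG4A was 1.42-fold higher (1.25 to 1.61, DESeq2 adjusted p = 1.24e-06) and GABARAPL1 1.18-fold higher (1.07 to 1.30, DESeq2 adjusted p = 0.00420) in that deposited table. CDKN1A stood higher with siRFX7 in DMSO as well, at 13389 against 5493 normalised counts. TP53INP2 had a log2 fold change of 0.24 (95% interval 0.03 to 0.44) and a DESeq2 adjusted p of 0.0729 in the authors' deposited table, and it passed the threshold when the median gene or the group totals were set equal. The other 5 genes did not pass. Their log2 fold changes ran from -0.20 for ULK2 to 0.11 for ULK1, and the 95% intervals reached no further than -0.45 for ULK2 and 0.26 for ULK1.

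siRFX7 in Nutlin-3a is the comparison on which TP53INP1 was singled out. Its mean there was 4792 against 6757 in siControl, 0.709 times as high, with a log2 fold change of -0.50 ± 0.08 (SE) in the authors' deposited table. DRAM1 lay on the other side of 0 at 0.32 ± 0.05 (SE), and ATG4A at 0.43 ± 0.09 (SE), in the same deposited table. MAP1LC3B stood at 0.11 ± 0.05 (SE), TP53INP2 at 0.11 ± 0.10 (SE), GABARAPL1 at 0.09 ± 0.06 (SE) and SQSTM1 at 0.07 ± 0.05 (SE) in the authors' deposited table. ATG2B stood at 0.01 ± 0.13 (SE), ULK1 at -0.05 ± 0.07 (SE) and ULK2 at -0.26 ± 0.14 (SE) in that deposited table. There, 15.0% of all genes were marked higher and 13.6% lower at the adjusted p of 0.05 (19.8% and 19.3% of genes with a mean of at least 100), and 2 members higher and 1 lower. The lower one is TP53INP1, by the choice of members, so nothing is read from these counts. The median of the 10 was 0.08, against 0.002 over all genes and 0.003 over those with a mean of at least 100.

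**Figure D3:**
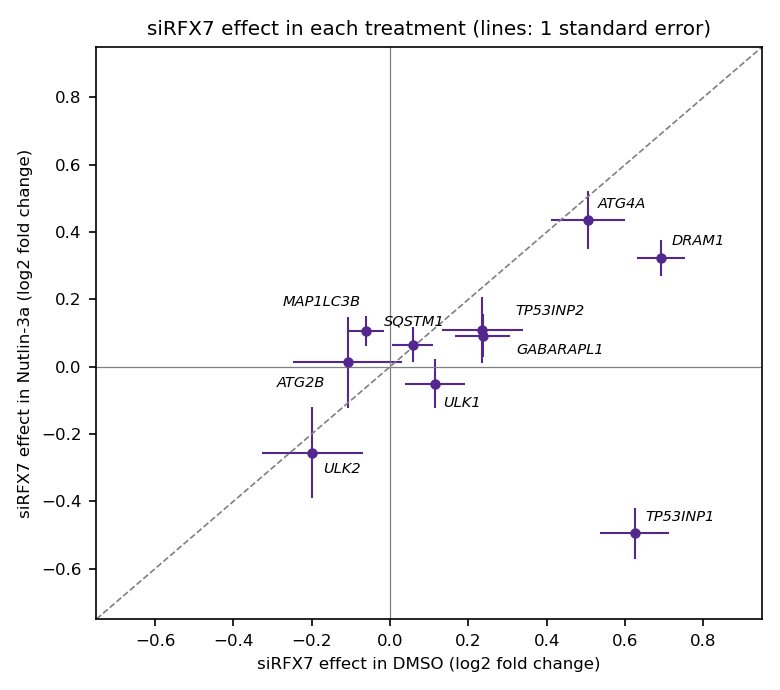
Log2 fold change with siRFX7 in DMSO (x axis) against that in Nutlin-3a (y axis) for the 10 genes, with lines of 1 SE either way and a dashed line of equal effects. TP53INP1 is the gene with a value above 0 in DMSO and well below 0 in Nutlin-3a; DRAM1 and ATG4A lie above 0 on both axes.

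The difference between the Nutlin-3a responses, siRFX7 minus siControl, contains the comparison just described. It was -1.12 ± 0.12 (SE) on the log2 scale for TP53INP1, whose response was 3.68 in siControl and 2.56 in siRFX7. For DRAM1 it was -0.37 ± 0.08 (SE). In TP53INP1 the DMSO level was higher and the Nutlin-3a level lower with siRFX7. In DRAM1 both levels were higher with siRFX7, the DMSO level by more. The other differences ran from -0.16 ± 0.11 (SE) for ULK1 to 0.17 ± 0.06 (SE) for MAP1LC3B. Over all genes, the z test called 3.28% of differences above 0 and 2.92% below 0 (5.92% and 4.69% of genes with a mean of at least 100). For the 10 members no test result is given, since the difference holds the values on which TP53INP1 was chosen. The all-gene split of 760 above and 677 below became 583 and 792 with equal group totals. The median difference of the 10 was -0.10, against 0.003 over all genes and 0.03 over those with a mean of at least 100.

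The other autophagy genes give the setting of these 10. Of 60 looked up, 58 were listed in the authors' deposited tables for Nutlin-3a, and MAP1LC3A and MAP1LC3C were not. With Nutlin-3a, siControl cells had 32 of them called higher and 9 lower (median log2 fold change 0.27), and siRFX7 cells had 37 higher and 8 lower (median 0.31). The shares of genes with a mean of at least 100 called higher and lower were 33.4% and 32.0% in siControl and 34.0% and 28.7% in siRFX7, as above, and the counts by step below are to be read beside them. Lipid supply genes, which feed the early membrane, had 6 of 7 higher in siControl: ATG9A, ATG2A, WIPI1, WIPI2, WDR45 and ZFYVE1. The same 6 were called higher in siRFX7. Cargo receptor genes had 7 of 10 higher under each siRNA (NBR1, OPTN, TAX1BP1, BNIP3L, RETREG1, NCOA4 and TOLLIP), and 1 lower, CALCOCO2 in siControl and BNIP3 in siRFX7. Genes of the conjugation machinery, which attaches ATG8 proteins to lipid, had 3 of 9 higher (ATG7, ATG12, ATG4D) and 4 lower (ATG3, ATG5, ATG10, ATG4C) under each siRNA. In siControl, 2 of 4 initiation genes were higher (ATG13, RB1CC1), 2 of 6 genes of the PI3-kinase complex were higher and 1 lower, and 2 of 6 fusion genes were higher (VAMP8, PLEKHM1). The 2 of 6 higher for the PI3-kinase complex and for fusion, and the 3 of 9 higher for conjugation, are no more than the share of all such genes. The split of the conjugation genes was not tested. In siRFX7 the same 2 initiation genes were higher, as were BECN1, PIK3C3 and NRBF2 of the PI3-kinase complex, with PIK3R4 lower, and 5 of the 6 fusion genes. Lysosome genes had 9 of 14 called higher in siControl and 10 in siRFX7, with LAMP2 and GLA lower under both. Of the ATG8 genes outside the set, GABARAPL2 rose under both siRNAs, by 0.47 and 0.63 on the log2 scale, and GABARAP was called in neither, in the authors' deposited tables.

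**Figure D4:**
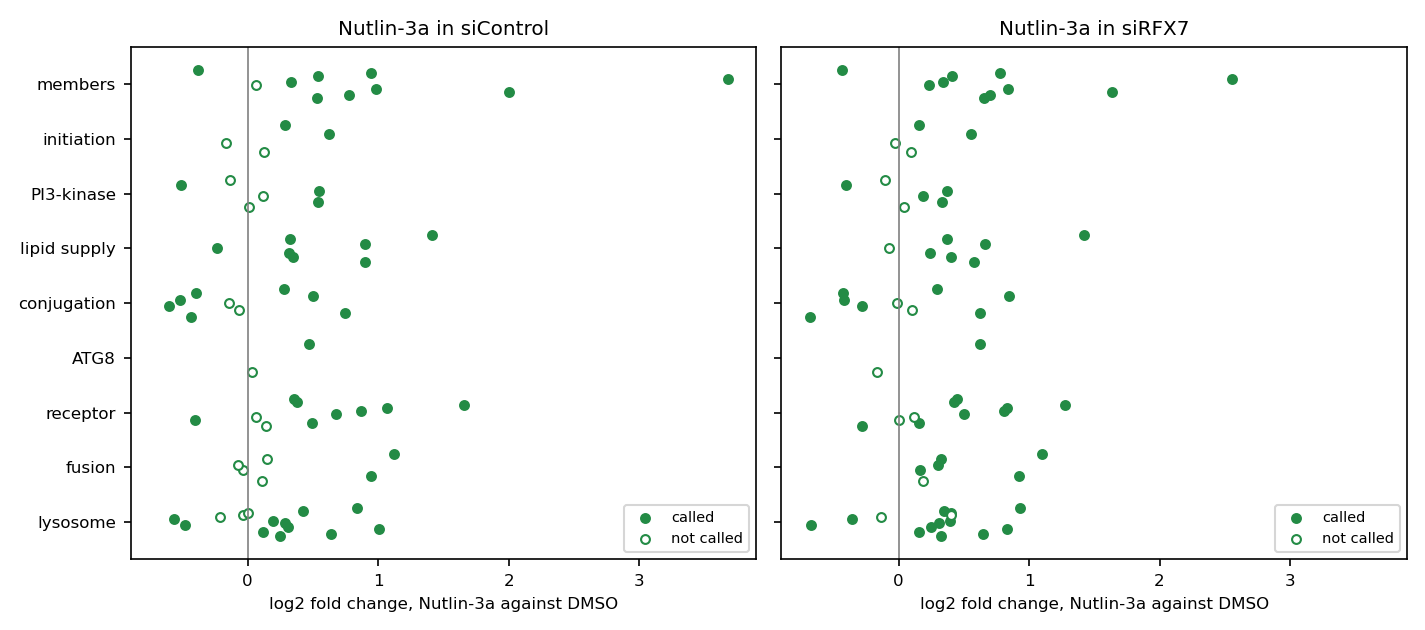
Log2 fold changes with Nutlin-3a (x axis) of the 10 members (top row) and the 58 other autophagy genes, in rows by step, with siControl left and siRFX7 right; filled points were called. Most lipid supply and receptor genes lie right of 0, and conjugation genes lie on both sides, from -0.60 to 0.75 in siControl.

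Among these genes with a mean of at least 100, the largest rises with Nutlin-3a in siControl were RETREG1 (1.65), a receptor for endoplasmic reticulum, ZFYVE1 (1.41), which encodes the omegasome marker DFCP1, and VAMP8 (1.12), a fusion SNARE. The lowest log2 fold changes there were those of ATG3 (-0.60), the enzyme that joins ATG8 to lipid, LAMP2 (-0.56), a lysosomal membrane protein, and ATG4C (-0.52), a protease of the ATG4A family, in the authors' deposited table. In siRFX7 the same 3 genes led, with ZFYVE1 at 1.42, RETREG1 at 1.27 and VAMP8 at 1.101. ATG10 (-0.68), GLA (-0.67) and ATG5 (-0.43) were lowest in that deposited table. The log2 fold changes of DRAM1 and TP53INP1 lay above all of these.

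With siRFX7 in DMSO, 15 of the 58 were called higher and 9 lower (median 0.06), and in Nutlin-3a 19 higher and 10 lower (median 0.09), in the authors' deposited tables. Of genes with a mean of at least 100, 17.1% were called higher and 23.4% lower in DMSO, and 19.8% and 19.3% in Nutlin-3a, so the counts of lower genes were no larger than the background. The lowest log2 fold changes of the 58 were those of MITF, a transcription factor gene related to TFEB, at -1.35 (SE 0.23) in DMSO and -0.91 (SE 0.23) in Nutlin-3a, both called lower in the authors' deposited tables. Its mean of 88.7 normalised counts was under 100, and it was named after its values were seen. The genes below had a mean of at least 100. RETREG1 stood at 0.99 in DMSO and 0.61 in Nutlin-3a on the log2 scale, and its group means with DMSO and Nutlin-3a were 190.4 and 599.5 in siControl against 377.5 and 912.5 in siRFX7. NRBF2, a subunit of the PI3-kinase complex, stood at 0.59 and 0.66. NBR1, a cargo receptor related to p62, stood at -0.32 and -0.49, and the transcription factor gene TFE3 at -0.35 and -0.42, in the authors' deposited tables. OPTN, a receptor, was among the 3 highest in DMSO at 0.63 and VAMP8 in Nutlin-3a at 0.46. CALCOCO2, the receptor NDP52, was among the 3 lowest in DMSO at -0.38 and ATG12, a conjugation protein, in Nutlin-3a at -0.43.

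Genes with the pattern most like that of the 2 strongest responders were found over the 4 group means, by Euclidean distance between centred log2 means among 12463 genes with a mean of at least 100. For TP53INP1 they were ALOX5 at a distance of 0.296, BTG2 at 0.36 and PRODH at 0.389. ALOX5 went from 37.1 to 446 normalised counts with Nutlin-3a in siControl and from 70.7 to 363 in siRFX7, and BTG2 from 1093 to 10656 and from 1766 to 9772. PRODH went from 77.2 to 726 in siControl and from 115 to 722 in siRFX7. With siRFX7 the Nutlin-3a means of ALOX5 and BTG2 were lower, and that of PRODH was nearly the same. The search matched genes on these 4 means, among them the Nutlin-3a means on which TP53INP1 was singled out. Likeness in them therefore follows from the search, for TP53INP1 and for DRAM1, and was not tested. For DRAM1 they were ZNF219 at 0.0949, GBE1 at 0.103 and CDIP1 at 0.124. ZNF219 went from 644 to 2608 in siControl and from 1074 to 3050.5 in siRFX7, and stood above siControl with siRFX7 in both treatments as DRAM1 was.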

How the data were processed

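RNA from 12 libraries in 4 groups was summarised in 4 result tables deposited by the authors, each comparing 2 groups with DESeq2. The submitters' processing notes name bcl2fastq 2.20.0.422, Trimmomatic 0.39, FastQC 0.11.9, cutadapt 2.10, SAMtools 1.10, Picard, featureCounts 1.6.5, DESeq2 1.20.0 and the build hg38. The aligner, annotation, strand setting and handling of multiply matching reads are not given in the sources used here. Per the file headers, the mean column is a signal, counts divided by size factors and averaged over libraries, and the fold changes and their errors are on a log2 scale. The statistic in the deposited tables is a score, the fold change over its error, and p-values and adjusted p-values in them are those of the authors' DESeq2 test. Fold changes for siRFX7 were taken as relative to siControl, since the 4 tables then closed to within 1.27e-14, against a median of 0.374 the other way.

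Group means, size factors and dispersions were recovered from these columns, with a median relative error of 1.48e-06 in the standard errors. Recovered depth was 26639600 to 27272400 counts per library on average, and members had standard errors of 0.05 to 0.14 on the log2 scale in the deposited comparisons. Those errors hold the replicate spread as well as the depth. Genes were called at a deposited adjusted p below 0.05. The difference between the Nutlin-3a responses was put to a two-sided z test, Benjamini-Hochberg adjusted over 23195 genes. This takes the errors as known. A test on counts per library had been allowed for in the design, and since the tables hold statistics, the authors' own test was used. The members, gene lists and motifs were chosen with earlier results of these data known. Named genes are the members, RFX7, CDKN1A and MDM2 as checks, the markers, the 3 nearest patterns to TP53INP1 and to DRAM1, and in each comparison the 3 called autophagy genes with a mean of at least 100 that were highest and the 3 lowest, plus the members of a list where singled out, and MITF. Python 3.11.15, pandas 2.3.3, numpy 2.4.6, scipy 1.17.1 and matplotlib 3.10.9 were used. Alternatives were an adjusted p below 0.01, a minimum absolute log2 fold change of 0.58, adjustment over genes with a mean of at least 10, a median of 0 over genes with a mean of at least 100, and, added after the data were seen, equal group totals.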

Additional observations from a re-analysis of the deposited data

Results flagged for a closer look

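The Nutlin-3a response differed between siRFX7 and siControl cells for 8 of the 58 other autophagy genes by the z test, 5 above and 3 below 0, with all values given as siRFX7 minus siControl on the log2 scale. Of all genes with a mean of at least 100, 5.92% were called above and 4.69% below 0, so nothing particular to autophagy genes is read from these counts. The members are left out here, since their differences hold the values on which TP53INP1 was singled out. CALCOCO2 had a difference of 0.41 (SE 0.07). It went from 3284 to 2478 normalised counts in siControl and from 2527 to 2532 in siRFX7. NPC1, a lysosomal cholesterol transporter, had a difference of 0.40 (SE 0.12), and SNAP29, a fusion SNARE, one of 0.38 (SE 0.09). ATG4D, a protease related to ATG4A, had a difference of 0.34 (SE 0.11) and ATG3 one of 0.32 (SE 0.09). BNIP3L, a mitophagy receptor, had a difference of -0.33 (SE 0.10), ATG2A, the paralogue of ATG2B, one of -0.32 (SE 0.09), and BECN1, a PI3-kinase complex subunit, one of -0.21 (SE 0.07). The z test gave BECN1 an adjusted p of 0.0486, at the edge of the threshold. Only CALCOCO2, SNAP29 and ATG2A had an adjusted p below 0.01 in that test.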

How the results depend on the processing

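No alternative turned a called direction of a member in the 2 Nutlin-3a comparisons or with siRFX7 in DMSO, but the settings could not have done so. The thresholds and the choice of genes adjusted over leave the fold changes as they are. Setting the totals or the median equal shifts every gene of a comparison alike. The log2 ratio of group totals that lay furthest from 0 was -0.057, with siRFX7 in DMSO. The smallest called member value was 0.23, for MAP1LC3B with Nutlin-3a in siRFX7. A minimum absolute log2 fold change of 0.58 ended 14 calls. It left 5 of 9 members with Nutlin-3a in siControl, 6 of 10 in siRFX7, 2 of 4 with siRFX7 in DMSO, 0 of 3 in Nutlin-3a (0 also at an unadjusted p under 0.05 in the authors' DESeq2 test) and 1 of 2 for the difference of responses. The last 2 counts rest on values that chose TP53INP1 and say nothing of its stability. Of the other autophagy genes it left 15 of 41, 15 of 45, 4 of 24, 3 of 29 and 0 of 8 in the same order (0 of the last also at an unadjusted p under 0.05 in the z test). Of all 23195 genes, that minimum left 2585 higher and 2613 lower with Nutlin-3a in siControl, and 2407 and 2423 in siRFX7. With siRFX7 it left 1044 and 503 of 20026 in DMSO and 801 and 681 of 19393 in Nutlin-3a. For the difference of responses it left 185 above and 359 below 0 of 23195. An adjusted p below 0.01 left 3 of the 8 differences among the other genes and ended the ULK2 call in siControl. Equal group totals brought TP53INP2 with siRFX7 in DMSO (0.29) past the threshold, and a median of 0 did so too (0.27). Adjustment over genes with a mean of at least 10 changed 0 member calls. No paired analysis was possible because the tables hold group-level statistics and no value per replicate. For the same reason leaving out replicates, a count test with other size factors and no filter on low counts were not run. Precision differed between members: in the deposited comparisons MAP1LC3B, with a mean of 2232 normalised counts and a CV of 3.23%, had errors of 0.05, while ATG2B and ULK2, with means of 370.5 and 264 and CVs of 10.3% and 9.39%, had errors of 0.13 to 0.14. For the difference of responses the errors were larger, at 0.06 for MAP1LC3B and 0.19 for both ATG2B and ULK2.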
